A study of Danio rerio with 6 samples.

Results

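The V-ATPase is the rotary proton pump that acidifies lysosomes, endosomes and synaptic vesicles, and its V1 sector is the cytosolic part that hydrolyses ATP. The genes of that sector were taken as every deposited row whose name starts with atp6v1. This gave 13 of 11218 rows, which are 9 of 10786 genes once rows of 1 symbol are summed, since 4 of the 9 genes were deposited as 2 rows each. RefSeq lists 13 zebrafish genes of that name, and the other 4 (atp6v1aa, atp6v1c1b, atp6v1c2 and atp6v1e1a) were not analysed here.

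The cells were sorted from heads of zebrafish (Danio rerio) at 48 hours after fertilization, and 3 libraries came from scarb2a mutants (1, 2 and 3) and 3 from their wild type siblings (1, 3 and 4). scarb2a is a zebrafish counterpart of the mammalian gene for LIMP-2, a protein of the lysosomal membrane. Fish of both genotypes carried the reporter that the series' design text writes as TgBAC(scar2ba:KalTA4; UAS-mKate2), in which the KalTA4 activator drives a red fluorescent protein, and each library held 5000 live reporter-positive cells from a pool of 50 heads. Which allele the mutants carry was not given in the sources used here. No label says which gene the spelling scar2ba stands for; if it is scarb2a, cells of both genotypes were sorted through a reporter of the mutated gene.

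In the pump, catalytic A subunits and B subunits alternate in a ring in which ATP is hydrolysed. Subunits D and F form the central shaft that the ring turns, E and G form the peripheral stalks that hold it still, and C and H join the stalks to the V0 sector in the membrane. V1 can detach from V0, which halts the pump, and H then silences the free V1. Zebrafish have several genes for some subunits. Neurons use the pump to load transmitter into synaptic vesicles, and skin ionocytes and osteoclasts place it on the cell surface.

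The recovered counts came to between 1560238 and 2086990 per library. The deposited table gives normalized counts, and a fold change here is the fitted mutant minus wild type difference of log2(value + 1), which understates the change of low genes. scarb2a itself was near the detection limit, with 2.43 ± 0.971 normalized counts in wild type against 3.80 ± 2.52 in mutants (SD, n = 3), so it gave no check of the genotype or the sort. The labels call the libraries biological replicates. In these bulk samples, fewer cells of a type and less RNA per cell cannot be told apart.

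The measured level of 4 of the 9 V1 genes was lower in the mutant, and none was higher. These genes encode both peripheral stalk subunits (atp6v1e1b and atp6v1g1), the regulatory H subunit (atp6v1h) and 1 of the B subunits (atp6v1ba). Their levels in mutants were between 0.631 and 0.805 times those in wild type. For atp6v1g1, at 0.631, the level sums 2 rows that moved in opposite directions, so it may not be a change of expression alone. In DESeq2 the calls of atp6v1h (adjusted p = 0.105) and atp6v1ba (0.0540) were lost. The remaining 5 genes did not pass an adjusted p of 0.05 in limma, and the mutant mean was below the wild type mean in 8 of the 9. Over all 9377 genes tested, 8.4% were lower and 11.1% higher in the mutant by the same threshold. The 3 mutant values lay below all 3 wild type values for 6 V1 genes, against 16.6% of all genes tested. The 6 include atp6v1g1, and also atp6v1b2, whose lowest wild type value was 29.2 and highest mutant value 29. The median fold change of the 9 genes was -0.31 on the log2 scale, beside -0.012 over all genes. Scaling every library to the same total moved the median of all genes by -0.11 and that of the V1 genes to -0.42, and the split over all genes went from 788 lower and 1039 higher to 1273 lower and 784 higher.

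**Figure D1:**
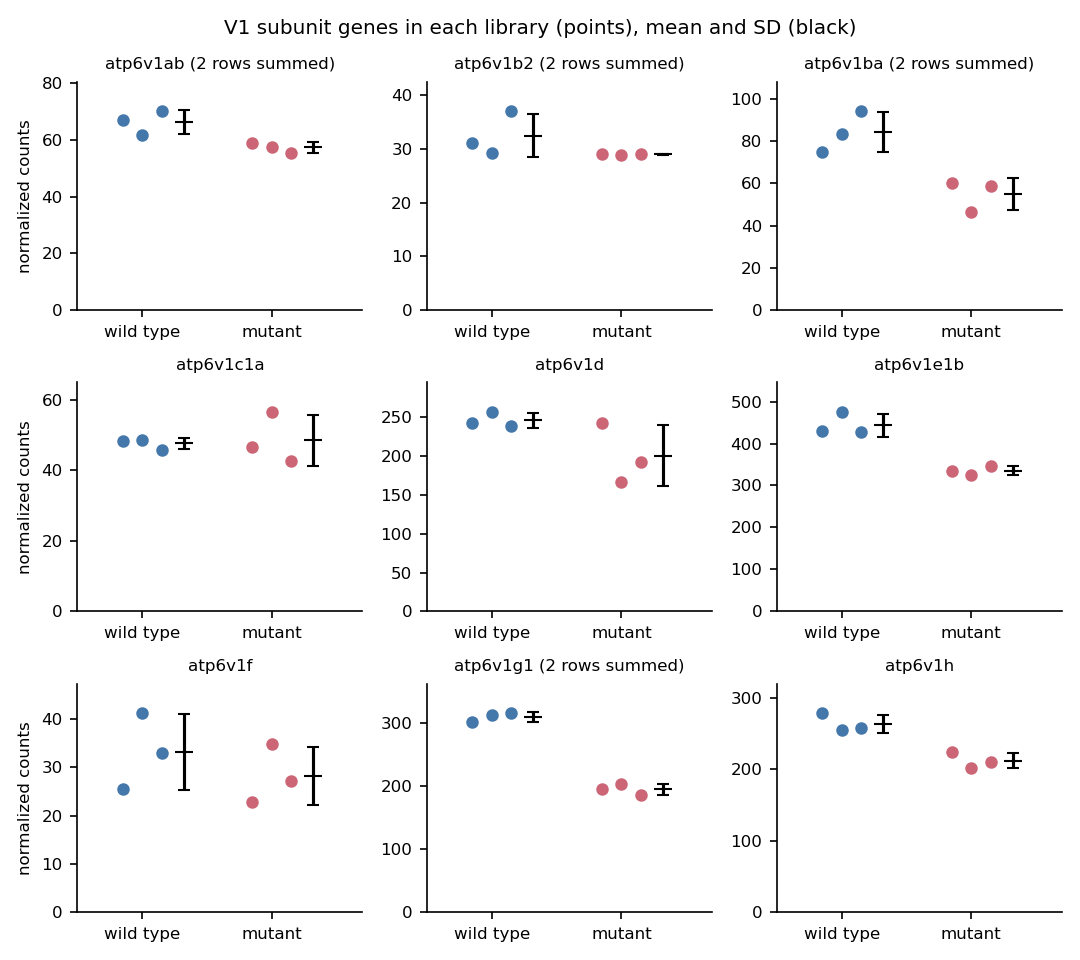
Normalized counts of the 9 V1 genes in each of the 3 wild type and 3 mutant libraries, with the mean and SD in black; each vertical axis starts at 0. The mutant points lie below all wild type points for 6 genes, though they nearly touch for atp6v1b2. The groups overlap for atp6v1c1a, atp6v1d and atp6v1f.

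Both peripheral stalk genes fell. atp6v1e1b, which encodes the E subunit, had 429.4, 474.2 and 426.5 normalized counts in wild type 1, 3 and 4 and 335.3, 323.9 and 347.3 in mutant 1, 2 and 3. The groups were well apart, with 443.4 ± 26.7 in wild type against 335.5 ± 11.7 in mutants (SD, n = 3), a fold change of -0.40 ± 0.0834 (SE; limma adjusted p = 0.00190). This call held in edgeR and DESeq2 and whichever 1 library was left out, and was lost in limma without a mean-variance trend (adjusted p = 0.0828). atp6v1g1, which encodes the G subunit, had 301.2, 312.8 and 315.6 in wild type against 195.6, 204.1 and 186.8 in mutants after its 2 rows were summed. The groups did not overlap, and the fold change of -0.66 ± 0.0902 (SE; adjusted p = 2.53e-05) was the largest among the 9 genes. It rests on the sum of 2 rows that moved in opposite directions, so this change may not be one of expression alone; the rows are described after the other subunits.

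atp6v1h, encoding the subunit that inhibits detached V1, fell by a smaller step. Its values were 278.2, 254.4 and 257.8 in wild type against 223.5, 202.1 and 210.4 in mutants, with no overlap. The fold change was -0.31 ± 0.0930 (SE; limma adjusted p = 0.0227). Leaving out wild type replicate 1 ended the call (-0.27, adjusted p = 0.0787), as did leaving out mutant replicate 2 (-0.28, 0.0851) or 3 (-0.31, 0.0626). It was also lost in DESeq2 (adjusted p = 0.105) and in limma without a trend (0.146). The C subunit sits beside H at the junction with V0, and its gene did not pass. atp6v1c1a had 48.5, 48.7 and 45.8 in wild type against 46.6, 56.5 and 42.6 in mutants, and the mutant values spanned those of wild type. The fold change of 0.017 had an interval from a ratio of 0.795 to one of 1.29 and an adjusted p of 0.959, and with equal totals it was -0.093.

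Of the B subunit genes, atp6v1ba fell and atp6v1b2 did not pass. atp6v1ba, the zebrafish relative of the mammalian B1 gene, had 75, 83.4 and 94 normalized counts in wild type against 60.1, 46.5 and 58.9 in mutants. All mutant values were below all wild type values, with a fold change of -0.60 ± 0.152 (SE; limma adjusted p = 0.00801). Leaving out wild type replicate 4 ended the call (-0.52, adjusted p = 0.0528), as did DESeq2 (0.0540) and limma without a trend (0.0645). atp6v1b2, its paralogue, had 31.1, 29.2 and 36.9 in wild type against 29, 28.8 and 29 in mutants. These ranges nearly touch, and the fold change was -0.15 with a 95% interval from a ratio of 0.675 to one of 1.20 (adjusted p = 0.657), from 27 to 46 counts per library. The log2 ratio of atp6v1ba to atp6v1b2 was 1.35 ± 0.122 in wild type against 0.90 ± 0.196 in mutants (SD, n = 3). The ratio was lower in each mutant library than in every wild type library. An exact permutation test gave p = 0.1 (two-sided, 1 pair compared), the smallest that 3 against 3 libraries allow, so it could not pass.

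For the catalytic A subunit only atp6v1ab was measured. It had 67, 61.7 and 69.9 in wild type against 58.9, 57.5 and 55.3 in mutants. The groups did not overlap, but the fold change of -0.21 ± 0.143 (SE) did not pass (limma adjusted p = 0.360), and its interval ran from a ratio of 0.705 to one of 1.07.

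The rotor shaft genes did not pass. atp6v1d, which encodes the D subunit, had 243.5, 256.6 and 238.6 in wild type against 243.2, 166.4 and 192.2 in mutants. Mutant 1 lay within the wild type range while the other mutant libraries were below it, and the spread in mutants (SD 39.1) was wider than in wild type (SD 9.31). The fold change was -0.31 ± 0.117 (SE; limma adjusted p = 0.0697). It was -0.46 without mutant replicate 1 (adjusted p = 0.00863) and -0.42 with equal totals (0.0158). atp6v1f, for the F subunit, had 25.4, 41.1 and 32.9 in wild type against 22.8, 34.7 and 27.2 in mutants, from 22 to 41 counts per library. Those values overlap, and the interval of its difference, from a ratio of 0.617 to one of 1.20, covers changes as large as those of the genes that fell (adjusted p = 0.563).

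**Figure D2:**
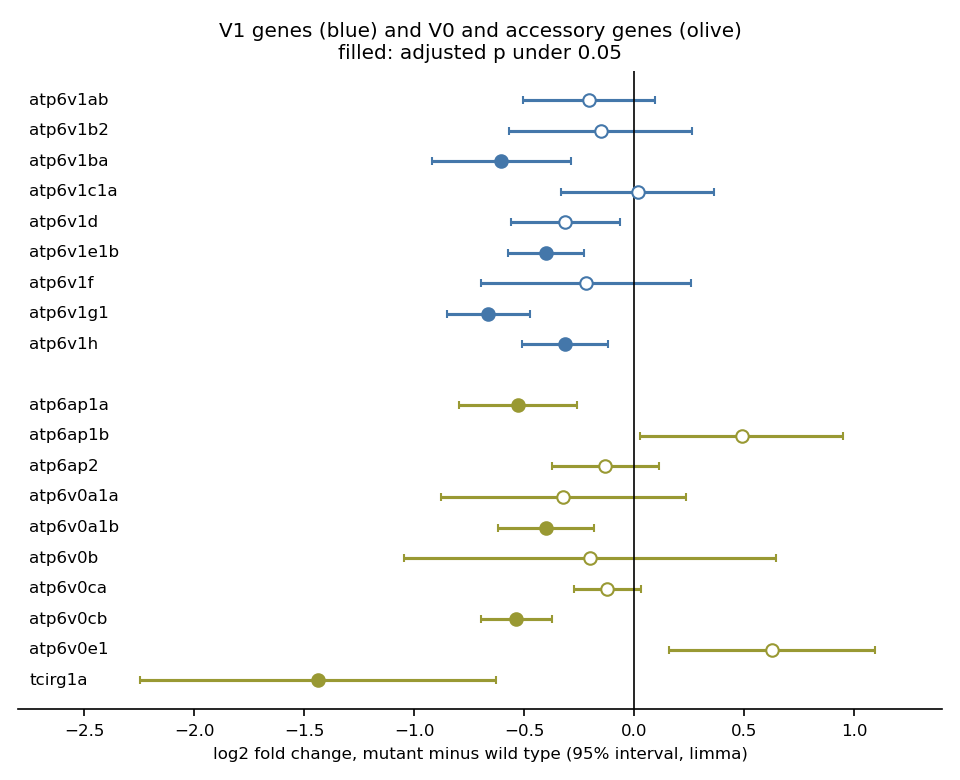
Log2 fold changes (mutant minus wild type) with 95% limma intervals for the 9 V1 genes in blue and 10 V0 and accessory genes in olive; filled points passed an adjusted p of 0.05. The V1 values run from -0.66 to 0.017, and those of the V0 and accessory genes from -1.44 to 0.63.

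The rows of atp6v1g1 showed the largest contrast among the 13 V1 rows. The plain row had 94.6, 97.4 and 106.8 normalized counts in wild type against 193.5, 202.1 and 185 in mutants. The row atp6v1g1_1 had 206.6, 215.4 and 208.8 in wild type against only 2.1, 2 and 1.8 in mutants, from 2 counts in each mutant library. The plain row therefore rose and the other nearly vanished. Fitted as separate rows, the plain row changed by 0.95 on the log2 scale (limma adjusted p = 2.87e-06) and atp6v1g1_1 by -6.16 (adjusted p = 6.17e-13), while 8.5% of all rows fitted singly were lower. The plain row held 31.4, 31.1 and 33.8% of the gene's counts in wild type against 187 of 189, 204 of 206 and 204 of 206 counts in mutants (95% exact intervals from 25.8 to 38.8% and from 96.2 to 99.9%, counting error only). How the authors' counting divided reads between rows of 1 symbol was not given in the sources used here. In this table, a change in the amount of atp6v1g1 RNA cannot be told apart from a change in how its reads were assigned, such as through a sequence difference inherited with the scarb2a allele. The same limit holds for the change of -0.66 in the sum.

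**Figure D3:**
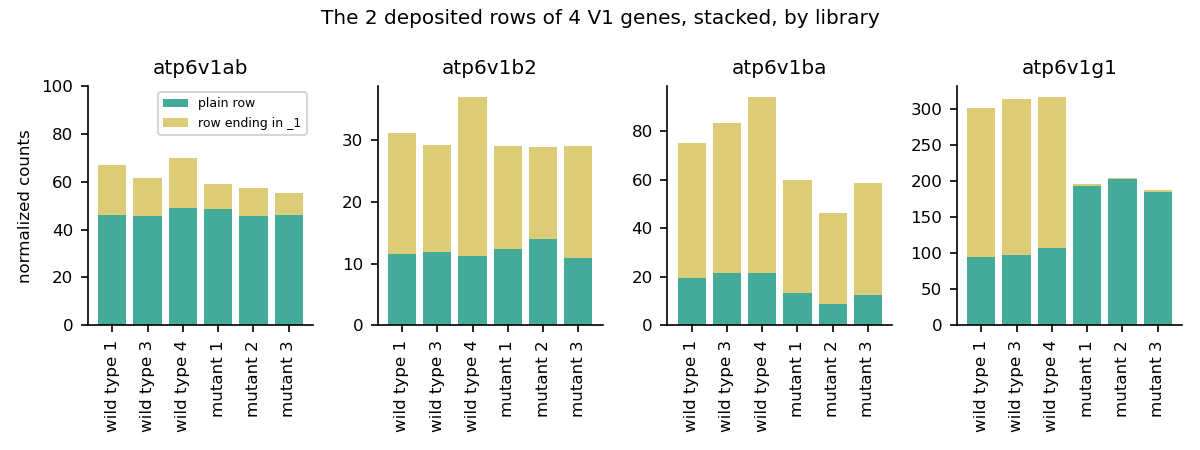
Stacked normalized counts of the plain row (green) and of the row ending in _1 (yellow) for the 4 V1 genes with 2 rows, in each library. Only for atp6v1g1 does the make-up of the bar change almost completely, from 31.1 to 33.8% plain row in wild type to all but 2 counts per library in mutants.

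The other genes with 2 rows kept a mixture in every library. The plain row of atp6v1ab was level, at 46.9 ± 1.85 in wild type against 46.8 ± 1.59 in mutants (SD, n = 3), while atp6v1ab_1 had 20.8, 16.2 and 20.9 in wild type against 10.3, 11.9 and 9.1 in mutants. The lower total of atp6v1ab thus lay in its second row, whose change of -0.83 just missed the threshold (limma adjusted p = 0.0509). Both rows of atp6v1ba were lower in the mutant, at -0.81 and -0.53 (adjusted p of 0.0479 and 0.0304). The rows of atp6v1b2 changed by 0.091 and -0.30, and neither passed. A limma fit of the log2 ratio between the plain row and the other rows, added after the data had been seen, was made over 290 symbols, of which 10% passed. Of the V1 genes atp6v1g1 passed, with a difference of 7.11 ± 0.186 (SE; adjusted p = 1.32e-14). atp6v1ab (0.82, adjusted p = 0.0887), atp6v1b2 (0.40, 0.635) and atp6v1ba (-0.28, 0.622) did not.

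The gene atp6v1g1 lies on chromosome 5 in RefSeq's GRCz12tu assembly, as does the mutated gene scarb2a, with 75 protein-coding genes between them. None of the other 8 V1 genes is on that chromosome. Row ratios differed more often on chromosome 5, where 14 of 22 tested symbols passed the ratio fit (63.6%), against 15 of 266 on other chromosomes (5.64%). In share terms, 293 symbols with several rows, a mean sum of at least 20 and counts in every library were compared. A row's share of its gene moved by 30 percentage points or more in 10 of 25 symbols on chromosome 5, atp6v1g1 among them. Elsewhere it did so in 0 of 266. That size was chosen after the values were seen. The largest move on another chromosome was 28.4 points, just under that size, so the 0 depends on where it was set. The median move was 24.0 points on chromosome 5 and 4.84 on the others. atp6v1g1 ranked second of the 293 with a move of 66.9 points, behind cdc26 with 67.1, also on chromosome 5. Summed per gene, the share of genes that fell was much the same on chromosome 5 (8.69% of 472) as on other chromosomes (8.33% of 8492). That share covers the whole chromosome, and the symbols whose rows moved were not looked at apart, so it does not speak for them.

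**Figure D4:**
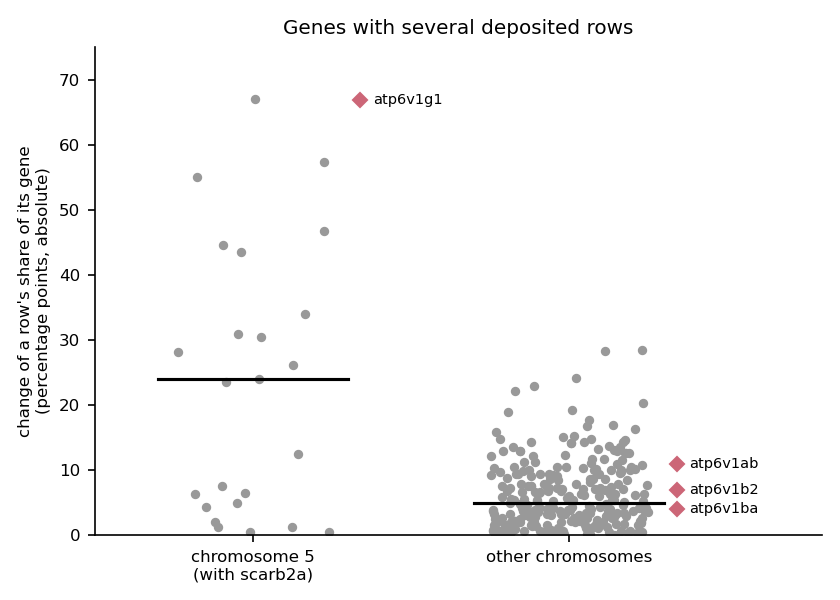
Absolute change between genotypes in a row's share of its gene's normalized counts, in percentage points, for symbols with several rows; black bars are medians and red diamonds are V1 genes. atp6v1g1 is at 66.9 among symbols of chromosome 5, and the other V1 genes with 2 rows lie at 10.9 or lower among the other chromosomes.

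Summed per library, the V1 genes had 1499.3, 1562.1 and 1518 normalized counts in wild type against 1215, 1120.5 and 1149.7 in mutants. The mutant libraries were all lower, at 0.761 times wild type, or 0.794 times without atp6v1g1. As a share of all counts they took 0.0833, 0.0902 and 0.0906% in wild type against 0.0639, 0.0589 and 0.0630% in mutants (95% exact intervals from 0.0788 to 0.0950% and from 0.0555 to 0.0676%). With ribosomal protein genes left out of the total the mutant share was 0.733 times that of wild type, against 0.704 times with them. No test was made of these sums, since the members were chosen with results of these data known.

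In the membrane sector, of 10 V0 and accessory genes tested 4 fell and none rose, with a median of -0.26. Over all genes tested, 8.4% were lower and 11.1% higher. By fold change 8 of the 10 were below 0, while atp6v0e1 and atp6ap1b were above 0 and did not pass. atp6v0e1 had 17.3, 22.7 and 25.7 in wild type against 32.1, 39.6 and 30.8 in mutants (0.63, limma adjusted p = 0.0559). atp6ap1b changed by 0.49 (adjusted p = 0.135). atp6v0cb, a gene for the proton-carrying c subunit, had 863.4, 761.1 and 807.3 in wild type against 530.9, 587.4 and 558.5 in mutants (-0.53, limma adjusted p = 5.28e-05). Another gene for that subunit, atp6v0ca, was higher in level and changed less. It had 977.6, 957 and 958.3 in wild type against 823.8, 905.4 and 933.9 in mutants, and did not pass (-0.12, limma adjusted p = 0.274). atp6v0a1b, for the subunit a that holds the proton channels, changed by -0.40 (adjusted p = 0.00952), and the accessory gene atp6ap1a by -0.53 (0.00629). These 3 calls held whichever 1 library was left out. Without a trend in limma those of atp6v0a1b (adjusted p = 0.0838) and atp6ap1a (0.104) were lost, and that of atp6v0a1b was also lost in DESeq2 (0.0633). tcirg1a, for another subunit a, changed by -1.44 from 19.1 ± 7.94 to 6.2 ± 2.36 (SD, n = 3), and this call ended when wild type replicate 1 (adjusted p = 0.0504) or 3 (0.0872) was left out, and in limma without a trend (0.0623). In counts, the ratio of V1 to V0 and accessory genes was 0.617, 0.657 and 0.631 in wild type against 0.656, 0.552 and 0.569 in mutants, so mutant 1 lay within the wild type range and the others below it.

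Assembly factors and proteins that bind V1 were sparsely measured. Beside the 8.4% of all genes tested that were lower, 6 of 17 listed genes were tested and 1 fell. That was tldc1, an older name of meak7, which encodes a protein of the TLDc family, at 26.5, 26 and 22.5 in wild type against 8.3, 18.8 and 6.3 in mutants (-1.23, limma adjusted p = 0.0132, and 0.0657 without mutant replicate 3, 0.0800 in DESeq2 and 0.0838 in limma without a trend). rogdi, a subunit of the RAVE-like complex that rejoins V1 to V0, had 71.8 ± 4.79 and 57.2 ± 11.8 (SD, n = 3; adjusted p = 0.158). The assembly chaperone gene vma21 was at 6.83 ± 2.07 and 5.83 ± 1.27 (SD, n = 3; adjusted p = 0.828), where a change of the size seen in V1 was not detectable at this depth.

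Markers of other cells in the gate differed between the same libraries. Of 25 neuron and synaptic vesicle markers 8 fell and none rose, with a median of -0.20, and their summed level was 14325.9 to 15074.2 in wild type against 12826 to 13129.6 in mutants. Among all genes tested, 8.4% were lower and 11.1% higher. The count of 8 was 5 without mutant replicate 2, 2 in limma without a trend and 14 with equal totals. snap25b, a release protein, changed by -1.02 (limma adjusted p = 8.25e-07) and sypb, a vesicle membrane protein, by -0.86 (3.60e-04), while vamp2 and sv2a, also of synaptic vesicles, changed by -0.069 and -0.092 and did not pass. By fold change 21 of the 25 were below 0. The paralogue snap25a was above 0, at 0.18, and did not pass (limma adjusted p = 0.238). The V1 sum was 9.95 to 10.6% of the neuron marker sum in wild type against 8.73 to 9.25% in mutants. That V1 sum includes atp6v1g1, whose change may not be one of expression alone. Without atp6v1g1 the V1 sum was 0.794 times wild type, and the marker sum was 0.876 times wild type. The highest markers weigh most in that marker sum. elavl3 and tubb5, the highest 2, were at 0.914 and 0.904 times wild type, while snap25b was at 0.488 times. The percentage therefore depends on which markers make up the sum. The part of the neuron markers in the V1 differences was not tested.

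Genes of ionocytes, which are rich in the pump, were sparsely measured. Of 17 ionocyte markers 6 had a row and 2 were tested. The sodium pump gene atp1a1a.1, which other cells also express, rose by 0.44 (limma adjusted p = 0.00801, 0.0554 with equal totals). The ionocyte factor foxi3a was at 9.2, 0 and 1.6 in wild type against 0, 0 and 0.9 in mutants, near or at 0 in every library but wild type 1. foxi3b, rhcgb and slc9a3.2 were not analysed here. The summed level of this list, 181.3 to 202.5 in wild type against 248.3 to 271 in mutants, is mostly atp1a1a.1, at 142, 189.5 and 165.5 against 222.5, 213 and 236.6, and so says little of ionocytes. The count of 1 that rose, beside 11.1% of all genes tested, was 2 without wild type replicate 4 and 0 in limma without a trend.

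Of 15 radial glia markers 6 fell and 3 rose, with sums of 7054.1 to 7535.2 in wild type against 5428.2 to 5978.3 in mutants. The 3 that rose became 1 without wild type replicate 3, wild type replicate 4 or mutant replicate 2, and 1 in DESeq2. Lens and retina markers were far lower in the mutant, with 10 of 13 falling and sums of 3024.1 to 3711 against 350.8 to 448.1. Mesenchyme and epidermis markers were higher, with 12 of 14 and 8 of 10 rising. Their sums went from 2764 to 3411.9 up to 6352.8 to 7275.2, and from 3001.1 to 4493.2 up to 6484.4 to 6947.7. Of 5 macrophage markers 2 rose and of 4 hair cell markers 1 did, with sums of 231.3 to 362.7 and 24.4 to 99.5 in wild type against 359.6 to 580.4 and 46.4 to 137.7 in mutants. Beside the counts in this paragraph, 8.4% of all genes tested were lower and 11.1% higher. With 5 and 4 genes tested, the macrophage and hair cell counts are too small to set apart from those shares. The macrophage count of 2 was 1 when mutant replicate 2 or 3 or wild type replicate 4 was left out, 1 in DESeq2 and with equal totals, and 0 in limma without a trend. The hair cell count of 1 was 2 without wild type replicate 4. The macrophage and hair cell sums overlapped between the genotypes, and the other sums in this paragraph did not. The part of these markers in the V1 values was not tested.

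**Figure D5:**
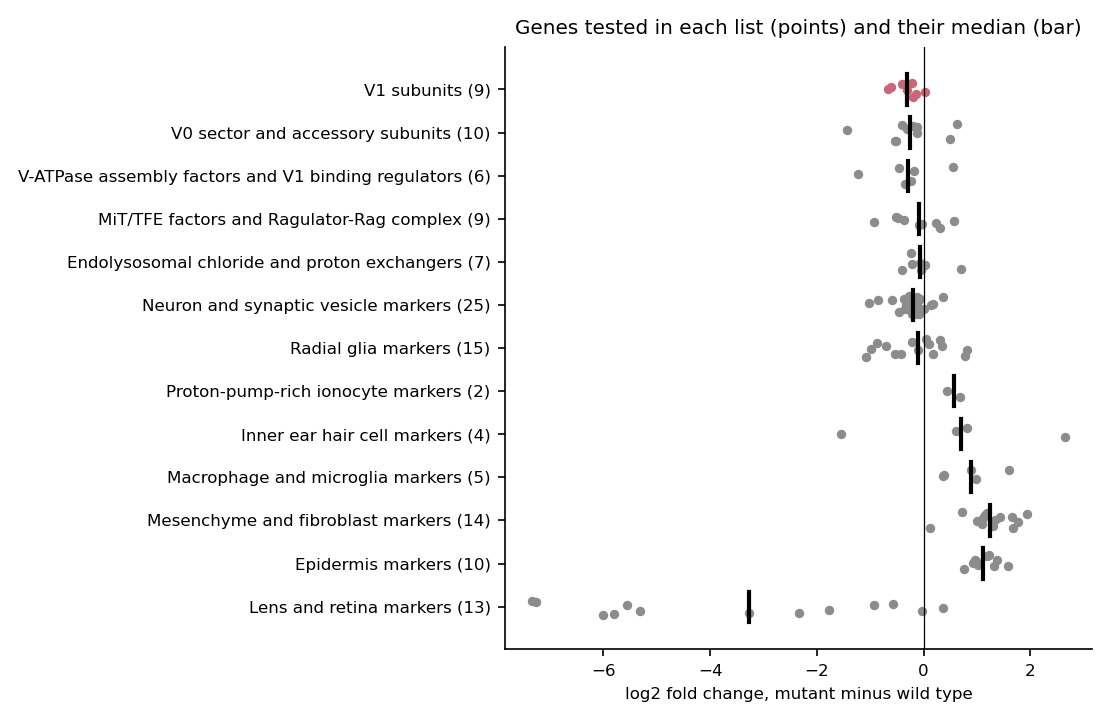
Log2 fold changes (mutant minus wild type) of the tested genes of each list, as points, with the median as a black bar and the number of genes in brackets; V1 genes are in red. The V1 median of -0.31 lies nearest that of the assembly factors and V1 binding regulators (-0.29). The V0 and accessory genes lie at -0.26, the neuron markers at -0.20, and the mesenchyme and lens lists at 1.24 and -3.27.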

How the data were processed

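Per the labels' protocols, a bulk form of MARS-seq tagged messenger RNA at its 3′ ends. danRer11 is the build per the submitters' processing notes. Aligner, counter and normalization were not given in the sources used here. A single table was deposited by the authors, and its values are a signal. Dividing each library by a step fitted to its own values gave whole counts for 99.997% of 67308 values (tolerance 0.0505). The step was chosen to give whole counts, so that share is not an independent check. Whether a count is a read or a molecule is not stated, so intervals cover counting error only.

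Rows of 1 symbol (a symbol and the same symbol with a number suffix) were summed in the whole table. Genes with a mean of at least 5 were fitted with limma on log2(value + 1), with genotype alone as a term, a mean-variance trend and Benjamini-Hochberg adjustment over 9377 genes. All 9 V1 genes passed the filter. Genes named are all members, the V0 and accessory genes that passed, and from the other lists up to 4 that passed and 2 that did not. atp6v0ca, atp6v0e1, atp6ap1b, snap25a, elavl3, tubb5, tfe3a, tfec, rraga, foxi3a, crx and cdc26 were chosen after their values were seen. The members and lists were chosen with earlier results of these data known. Listed genes were matched by symbol or, for 2 of them, an older name. Chromosomes came from RefSeq's GRCz12tu, another build than danRer11, for 95.0% of symbols, so no coordinates are given.

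The fit was also tested on simulated data drawn from these libraries' means and dispersions (9377 genes, 200 changed in all). It called 26% of 50 genes changed 1.5-fold, 62% of 50 changed 2-fold, 90% of 50 changed 4-fold and 98% of 50 changed 8-fold, and 10 of 9177 unchanged genes. Many more genes were called in the data, 788 lower and 1039 higher. The adjustment depends on that number, so these rates may differ from those of the real comparison. Fits used limma 3.58.1 in R 4.3.3, with DESeq2 1.42.0 and edgeR 4.0.16 on the recovered counts as alternatives. Exact tests used scipy 1.17.1, tables pandas 2.3.3 with numpy 2.4.6, and figures matplotlib 3.10.9, in Python 3.11.15.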

Additional observations from a re-analysis of the deposited data

How the results depend on the processing

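The count of 4 V1 genes lower in the mutant was 1 in limma without a trend and 2 in DESeq2 on the recovered counts. Without a trend the 1 gene was atp6v1g1, whose change may not be one of expression alone. In DESeq2 the 2 genes were atp6v1e1b and atp6v1g1. The count was 3 to 5 when 1 library was left out, 5 with equal totals and 4 in edgeR. It was 3 of 8 without atp6v1g1, a setting chosen after seeing the data. With the rows not summed, 1 row was higher in the mutant, atp6v1g1 at 0.95, and the plain row of atp6v1b2 turned to 0.091. The median of -0.31 was -0.42 with equal totals, -0.28 with quantile normalization, -0.26 without atp6v1g1 and -0.35 to -0.28 when 1 library was left out. atp6v1c1a, which did not pass, changed sign with equal totals (-0.093) and lay between -0.095 and 0.10 when 1 library was left out. The V0 and accessory count of 4 was 1 in limma without a trend. Over all genes, 788 lower and 1039 higher became 1273 lower and 784 higher with equal totals, 412 lower and 575 higher without a trend, and 388 lower and 627 higher in DESeq2. The cause of these shifts was not tested. The replicate numbers 1 and 3 occur in both genotypes, and the deviations of their libraries correlated with r = 0.0432 and -0.00612 across genes. With only 2 such numbers, these values cannot decide whether the numbers pair the libraries. With a replicate block on those 4 libraries 2 V1 genes were lower and atp6v1c1a was at -0.12. atp6v1g1 passed in 22 of 22 alternatives, but as higher where its plain row was fitted alone. atp6v1e1b passed in 21 of 22 alternatives, atp6v1ba in 18 and atp6v1h in 16. The difference in the paralogue ratio kept its sign in 8 of 8 alternatives. Leaving out 1 library could not change that sign, since every mutant ratio lay below every wild type ratio. Depth limits atp6v1f and atp6v1b2 most, with 22 to 46 counts per library. The counts of the other lists were run under the same settings after seeing the data, except with the rows not summed. The mesenchyme count was 12 or 13, that of lens and retina 8 to 11, and that of epidermis 5 to 9.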

Other observations

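The transcription factors of the MiT/TFE family, which drive genes of lysosome biogenesis, and the Ragulator and Rag proteins, which tie the pump to mTORC1 at the lysosome, gave no call among 9 genes tested in limma, edgeR or DESeq2, with a median of -0.084. There was 1 lower gene with equal totals or without mutant replicate 3, and 1 higher gene in limma without a trend. lamtor2, a Ragulator subunit gene, had 58.1 ± 6.24 normalized counts in wild type against 41.8 ± 8.71 in mutants (SD, n = 3; limma adjusted p = 0.0669), and fnip1, which encodes a folliculin partner, had 14.9 ± 0.361 and 22.7 ± 2.05 (adjusted p = 0.120). tfe3a, tfec and rraga were each below 10 normalized counts on average, where changes of the size seen in V1 would not be detectable. tfeb was not analysed here.

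The next list held chloride and proton exchangers of endosomes and lysosomes and a partner protein. Of these, the chloride exchangers help balance the charge that the pump moves. The list gave no call among 7 genes tested in limma, edgeR or DESeq2, with a median of -0.067, and 1 lower gene with equal totals. clcn4 had 65.4 ± 4.37 and 49.2 ± 5.16 (SD, n = 3; limma adjusted p = 0.0705), and clcn7, the main lysosomal exchanger gene, had 36.0 ± 2.87 and 34.6 ± 5.91 (adjusted p = 0.858). At an unadjusted p under 0.05 in limma, the Ragulator and MiT/TFE list held 2 genes and the exchanger list 1. Over all genes tested, 8.4% were lower and 11.1% higher even at the stricter adjusted p of 0.05. The share of all genes at the unadjusted p is not given here, so these counts do not set the lists apart.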
